A study of Mus musculus with 1 sample.

Results

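Interferon-response-high cells were 96 of the 7645 bone marrow cells kept from 1 library of Lineage- cKit+ cells (1.26%, exact binomial 95% interval 1.02 to 1.53). They were chosen by a sum of at least 5 UMIs over 7 genes, Isg15, Ifit1, Ifit3, Irf7, Usp18, Oasl2 and Rsad2, where a UMI (unique molecular identifier) stands for 1 captured mRNA molecule. Of 8817 barcodes, 7645 were kept, those with more than 1000 but fewer than 50000 UMIs, with 1000 to 6500 detected genes (limits excluded) and with less than 7% of UMIs from mitochondrial genes. The opposite group was 5439 cells with 0 UMIs of these genes, from which 473 were matched to the members.

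The library came from C57BL/6 mice with floxed Brd9 alleles (Brd9fl/fl) and, by the study's methods, no Mx1-Cre, the control of a Brd9 deletion study, and was made with the 10x Chromium 3' chemistry. The control mice received pIpC, a double-stranded RNA mimic that itself induces interferon, at 20 mg/kg every other day for 3 doses, and marrow of femora and tibiae was taken 8 weeks later. The labels describe CD45.2(+) Brd9fl/fl donor cells in CD45.1(+) CD45.2(-) recipients dosed 4 weeks after transplantation, while the design text describes primary mice dosed 4 weeks after birth, and this was not settled. The Brd9-deleted library was not analysed here. With 1 library there were no replicates, so no test was made, and every interval covers counting error only.

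Type I interferons bind the receptor Ifnar1/Ifnar2 on nearly all nucleated cells. The kinases Jak1 and Tyk2 then activate a transcription factor complex that includes Stat2 and Irf9, enters the nucleus and binds the interferon-stimulated response element (ISRE) in front of interferon-stimulated genes. The products of these genes restrict viral RNA and proteins, and Usp18 and Socs1 limit the signal. Interferon-gamma acts through a separate receptor and induces GTPases and antigen presentation genes in particular. In marrow, interferon and pIpC are known to drive dormant stem cells into division for a time.

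The promoters below are shown because they hold the ISRE core GAAANNGAAA, in which N is any base, and so let the sequence be read beside the measured difference. Isg15 and Ifit1 are rule genes, Igtp, Irgm1, Oas3 and Socs1 were higher in the members by over 2-fold, and B2m, picked after its value was seen, holds the core but differed little. Each runs 5' to 3' on the gene's strand from 250 bases before to 50 bases after the RefSeq start site (GRCm38.p6). Capitals mark the core on either strand, and a copy on the opposite strand reads as its reverse complement. The windows were chr4:156200769-156201068, minus strand for Isg15, chr19:34640639-34640938, plus strand for Ifit1, chr11:58199306-58199605, plus strand for Igtp, chr11:48871371-48871670, minus strand for Irgm1, chr5:120777610-120777909, minus strand for Oas3, chr16:10785487-10785786, minus strand for Socs1 and chr2:122147437-122147736, plus strand for B2m.
Isg15: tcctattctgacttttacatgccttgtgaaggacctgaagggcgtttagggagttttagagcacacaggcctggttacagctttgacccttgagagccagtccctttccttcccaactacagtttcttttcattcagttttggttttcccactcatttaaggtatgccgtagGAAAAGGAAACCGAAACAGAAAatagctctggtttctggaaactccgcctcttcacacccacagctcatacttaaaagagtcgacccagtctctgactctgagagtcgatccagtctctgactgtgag
Ifit1: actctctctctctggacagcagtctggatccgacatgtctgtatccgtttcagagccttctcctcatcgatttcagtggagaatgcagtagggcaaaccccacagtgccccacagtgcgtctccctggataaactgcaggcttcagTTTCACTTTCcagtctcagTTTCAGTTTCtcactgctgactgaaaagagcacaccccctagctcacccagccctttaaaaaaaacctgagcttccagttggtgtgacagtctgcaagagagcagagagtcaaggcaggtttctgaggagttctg
Igtp: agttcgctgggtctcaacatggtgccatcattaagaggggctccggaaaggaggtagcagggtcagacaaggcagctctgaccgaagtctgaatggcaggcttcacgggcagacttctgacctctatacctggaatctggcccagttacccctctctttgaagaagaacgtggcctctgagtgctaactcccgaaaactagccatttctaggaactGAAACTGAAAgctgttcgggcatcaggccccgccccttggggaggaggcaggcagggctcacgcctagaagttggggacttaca
Irgm1: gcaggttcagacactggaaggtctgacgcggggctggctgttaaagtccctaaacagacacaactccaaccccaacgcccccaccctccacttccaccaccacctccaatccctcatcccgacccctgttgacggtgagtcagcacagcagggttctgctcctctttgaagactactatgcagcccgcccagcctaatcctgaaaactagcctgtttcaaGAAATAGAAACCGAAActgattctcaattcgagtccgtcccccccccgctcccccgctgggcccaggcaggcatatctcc
Oas3: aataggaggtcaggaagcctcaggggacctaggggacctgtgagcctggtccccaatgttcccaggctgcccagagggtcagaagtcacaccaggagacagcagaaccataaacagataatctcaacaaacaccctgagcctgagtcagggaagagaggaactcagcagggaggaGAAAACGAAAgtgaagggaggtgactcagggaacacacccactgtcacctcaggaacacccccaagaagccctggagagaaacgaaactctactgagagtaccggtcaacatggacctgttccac
Socs1: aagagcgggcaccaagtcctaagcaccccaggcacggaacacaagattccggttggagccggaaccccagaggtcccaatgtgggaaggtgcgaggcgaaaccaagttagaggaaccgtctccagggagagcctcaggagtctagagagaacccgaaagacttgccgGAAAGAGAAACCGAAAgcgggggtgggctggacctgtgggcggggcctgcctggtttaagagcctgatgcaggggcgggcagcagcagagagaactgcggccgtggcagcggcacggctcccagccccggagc
B2m: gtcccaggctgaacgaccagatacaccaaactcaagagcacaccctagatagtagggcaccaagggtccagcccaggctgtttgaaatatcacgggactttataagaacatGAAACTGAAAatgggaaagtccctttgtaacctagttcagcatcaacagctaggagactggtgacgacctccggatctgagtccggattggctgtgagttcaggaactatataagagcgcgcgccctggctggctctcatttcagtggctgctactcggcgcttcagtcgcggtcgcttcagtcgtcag

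In Isg15, 3 overlapping copies of the core began between 78 and 66 bases before the start site. The core lay in the promoter of 1079 of 27025 genes with a window (3.99%) and of 327 of the 8654 matched genes that reached the minimum level used below (3.78%). Windows on chromosome 18 were left out, so the listed genes Iigp1, Gm4951 and Cd74 were not counted. Among the lists of genes outside the rule it was in 29 of 59 matched antiviral and other interferon-stimulated genes (49.2%), 10 of 11 GTPases (90.9%), 5 of 16 MHC class I presentation genes (31.2%), 10 of 19 interferon ligand genes (52.6%), 3 of 17 receptor and signalling genes (17.6%) and 0 of 7 MHC class II genes. Within the antiviral list, 13 of 28 matched genes that were higher in the members by 2-fold or more held it (46.4%), against 7 of 19 of the others (36.8%). The core was also present in 4 of the 6 rule genes with a window. The shorter gamma-activated core TTCNNNGAA was in 6 of 11 GTPases (54.5%) and 9 of 59 antiviral genes (15.3%), against 9.55% of all genes with a window. It was also in 6 of 17 receptor and signalling genes (35.3%) and 9 of 19 interferon ligand genes (47.4%). Within the antiviral list it was in 3 of 28 genes past 2-fold (10.7%) and 6 of 19 of the others (31.6%), the opposite order to the ISRE core. A match is only a run of letters and was not tested as a binding site.

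The values of the 7 rule genes chose the members and are given as a description. Isg15, a ubiquitin-like protein, gave 391 of the members' UMIs and was found in 82 of 96 cells. Rsad2 (viperin) gave 186 UMIs, Irf7, an inducible amplifier of interferon-alpha transcription, 150, the oligoadenylate synthetase-like gene Oasl2 128, Ifit1 118, Usp18 65 and Ifit3 17. Over all cells kept, Isg15 was found in 860 (11.2%). The sum per member ran from 5 to 68 with a median of 6, so most members lay near the limit. At the limit itself, 29 cells held 5 UMIs and were taken, and 76 cells held 4 and were not. Of the members, 26 held 10 or more. Only 2 members drew their UMIs from 1 gene, 18 from 2 genes, 32 from 3 genes, 28 from 4 genes, and 9, 3 and 4 members from 5, 6 and 7 genes.

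Each cell was placed by its leading marker list, the list of lineage markers furthest above its pooled level in the library. This is a range of a score and not a cell type: in 742 cells, 5 of them members, the best list led the next by under 0.5 on the log2 scale. Members were most numerous among cells led by the stem cell list (Hlf, Mecom, Procr, Fgd5 and others), with 36 of 1191 (3.02%, 2.13 to 4.16). These cells made up 15.6% of all cells and 37.5% of the members. The Flt3 multipotent progenitor list led 9 members of 448 cells (2.01%, 0.923 to 3.78), and the erythroid list led 20 of 1139 (1.76%, 1.08 to 2.70). By contrast 4 of 1190 monocyte list-led cells (0.336%, 0.0917 to 0.858) and 2 of 895 granulocyte-monocyte progenitor list-led cells (0.223%, 0.0271 to 0.805) were members. None of the 297 neutrophil list-led cells was a member. A count of 0 was taken to allow 3 cells, here a share of up to 1.01%, and the exact interval reaches 1.23%. None of the 88 plasmacytoid dendritic list-led cells was a member, which allows up to 3.41% on the same terms and 4.11% by the exact interval. The rest of the members were led by conventional dendritic (5), megakaryocyte (5), T, NK or innate lymphoid (2), basophil or mast (1) and mature macrophage (1) lists or by no list (11).

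These groups also differed in depth, and at an equal level a deeper cell reaches 5 UMIs more readily. The shares above did not rise with depth. Stem cell list-led cells were the shallowest large group, with a median of 9311 UMIs, and erythroid list-led cells the deepest, with 32884. When every cell was thinned to 5000 UMIs and the limit lowered to 2, 123 of 1173 stem cell list-led cells passed (10.5%, 8.79 to 12.4), 12 of 275 conventional dendritic list-led cells (4.36%, 2.27 to 7.498), 16 of 445 Flt3 progenitor list-led cells (3.60%, 2.07 to 5.77) and 19 of 1137 erythroid list-led cells (1.67%, 1.01 to 2.60). Monocyte list-led cells stayed at 5 of 1184 (0.422%, 0.137 to 0.983). Over all cells 214 of 7546 passed (2.84%, 2.47 to 3.24), and 99 shallower cells were left out. The summed level of the 7 genes, which needs no limit, was 98.9 UMIs per 1000000 UMIs (counts per 1000000, CPM) in stem cell list-led, 56.5 in conventional dendritic list-led, 47.7 in Flt3 progenitor list-led, 37.0 in megakaryocyte list-led, 22.6 in erythroid list-led and 5.72 in monocyte list-led cells. Among small groups it was 148 in 11 mature macrophage list-led cells and 57.1 in 52 cells led by the T, NK or innate lymphoid list. Kit, on which the cells were selected, was detected at 88.1 CPM over all cells, and at 271 CPM in stem cell list-led and 29.4 CPM in plasmacytoid dendritic list-led cells. Between the unthinned and the thinned shares the depth and the limit changed together. Both count the genes that the rule used, so they are a description, and the lineages were not compared by a test.

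**Figure D1:**
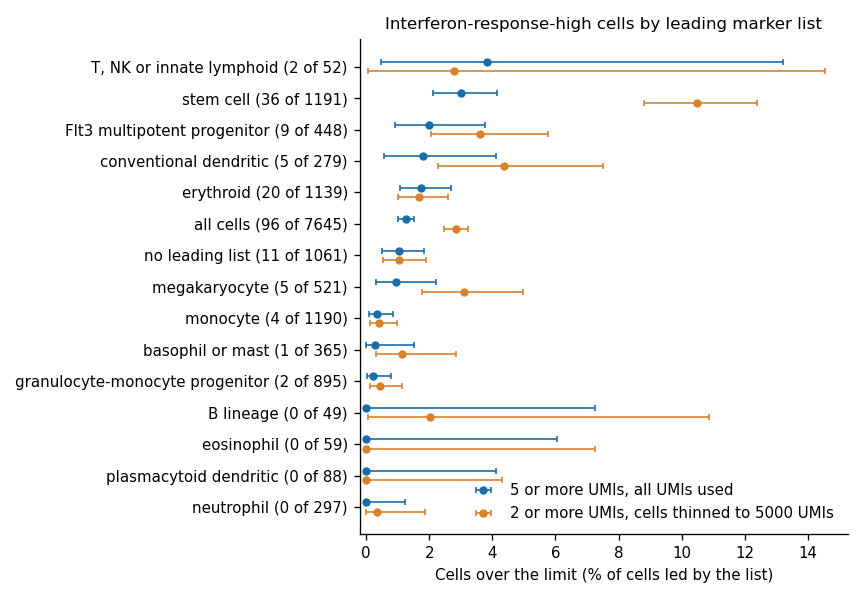
Share of interferon-response-high cells (x axis, percent) among cells led by each marker list (y axis, with members of all cells; lists with under 40 cells are not drawn), with exact binomial 95% intervals; blue points use all UMIs and a limit of 5, orange points cells thinned to 5000 UMIs and a limit of 2. Stem cell list-led cells stand at 3.02% and, at equal depth, at 10.5%, and monocyte list-led cells at 0.336% and 0.422%.

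The members of different lineages did not draw on the 7 genes in equal parts. Among stem cell list-led members Oasl2 gave 24.8% and Ifit1 15.8% of the rule UMIs (82 and 52 UMIs in 36 cells). Among erythroid list-led members Oasl2 gave 2.73% and Ifit1 1.09% (5 and 2 UMIs in 20 cells), while Isg15 gave 42.6%, Irf7 25.7% and Rsad2 18.0%. Ifit3 was at 0 UMIs in the erythroid list-led members. Since the rule used these genes, the differences are a description.

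For genes outside the rule, each member was compared with up to 5 cells with 0 rule UMIs that had the same leading list and a close depth. Among such cells, those nearest in the scores of all marker lists were taken. The marker ratios below are therefore not an independent check of the matching. Lower and upper quartiles of depth were 9190 and 27488 UMIs in the members and 9464 and 27540 in the matched cells. All 5 were found for 93 of 96 members. Median depth was 16348.5 UMIs in the members and 16349 in the matched cells, and the median mitochondrial share was 4.24% and 4.04%. Doublet calls were 4 of 96 members (4.17%) and 10 of 473 matched cells (2.11%). The stem cell marker list differed by 1.04-fold and the erythroid list by 0.99-fold, whereas the basophil or mast list was at 0.635-fold, the megakaryocyte list at 0.749-fold and the conventional dendritic list at 1.78-fold in the members, or 0.986-fold without the highest member and matched cell. Mature macrophage markers summed to 5.61 against 3.21 CPM (1.75-fold, 0.791 to 3.59), B lineage markers to 32.1 against 21.6 (1.49-fold, 1.10 to 1.98) and T, NK or innate lymphoid markers to 173 against 167 (1.04-fold, 0.918 to 1.17). The part of these marker differences in the results below was not tested. Of 10904 genes outside the rule that reached 2 CPM in cells outside the contrast, 162 (1.49%) were at least 2-fold higher and 243 (2.23%) at least 2-fold lower in the members, and the median gene stood at 0.985-fold. These shares come from the contrast that the rule defines, so the counts of listed genes below are printed beside them as a description.

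Antiviral and other interferon-stimulated genes outside the rule were higher in the members. Their summed level was 5326 CPM in the members and 3058 in the matched cells, a ratio of 1.74 (exact binomial 95% interval 1.70 to 1.78). Of 58 genes that reached the minimum level, 36 were higher by 2-fold or more, 57 were above 1 and 0 were lower by 2-fold, with a median of 2.46 beside 0.985 for all genes. Per cell, the level in the members ran from 1512 to 24141 CPM with a median of 5772, and in the matched cells from 650 to 11212 with a median of 3586. The ranges overlapped. The highest member, led by the stem cell list, held 38 rule UMIs among 4018 UMIs in all. The member with the highest rule sum, 68, was led by the Flt3 progenitor list and stood at 23079 CPM, with 57 genes of the antiviral list detected against a median of 28 in the members and 19 in the matched cells. Of 96 members, 84 lay above the median of their own matched cells and 67 above each of them.

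**Figure D2:**
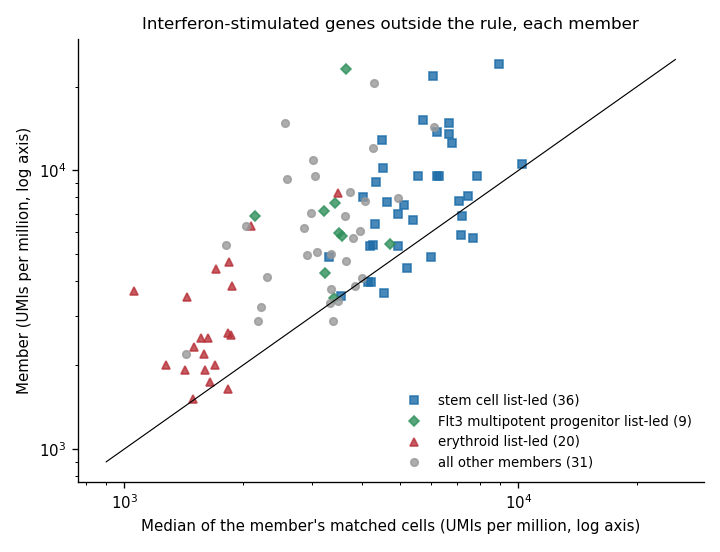
Summed level of the antiviral and other interferon-stimulated genes outside the rule in each of 96 members (y axis, CPM) against the median of its matched cells (x axis, same unit), both on log axes; the line marks equal levels and symbols mark the leading list. Of the members, 84 lie above the line, and most erythroid list-led members sit at the low end of both axes.

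Rtp4 (ENSMUSG00000033355, chr16:23520291-23614222 in mm10, plus strand), an interferon-induced chaperone of membrane receptors, was at 81.0 CPM in the members and 6.95 in the matched cells (11.7-fold, 8.69 to 15.8). It was found in 59 members (61.5%) and in 54 matched cells (11.4%). No cell type here can be taken to lack these genes, so the matched cells, at equal depth, serve as the background of such shares. Oasl1 (chr5:114923240-114937915, plus strand), which restrains Irf7 translation, was at 35.2 against 2.35 CPM (14.95-fold, 9.14 to 25.4), with UMIs in 28 members and 20 matched cells. The nucleic acid sensor Zbp1 (chr2:173206612-173218923, minus strand) was at 32.1 against 3.21 (10.01-fold, 6.39 to 16.0), and Ifi44 (chr3:151730922-151749960, minus strand) at 45.9 against 4.70 (9.75-fold, 6.73 to 14.3). Oas3, which makes the 2'-5' oligoadenylates that activate RNase L, was at 24.5 against 3.53 (6.94-fold, 4.36 to 11.2). Slfn5 was at 47.4 against 3.21 (14.8-fold, 9.70 to 23.1), but 48 of its 93 UMIs lay in 1 conventional dendritic list-led member, and without that cell the ratio was 7.21. Oasl1, Rtp4, Ifi44 and Zbp1 each had at most 15.9% of their member UMIs in 1 cell.

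The abundant genes of the same list differed less. Ifitm3, which blocks viral entry and was chosen after its value was seen, was at 755 against 391 CPM (1.93-fold, 1.82 to 2.05). Ifitm2 was at 491 against 503 (0.976-fold, 0.910 to 1.05), and the DNA sensor Aim2 at 20.4 against 19.1 (1.07-fold, 0.737 to 1.51), the lowest ratios of the list. A split made after the data were seen gave 3.98-fold (3.76 to 4.21) for the 45 genes under 20 CPM in the other cells and 1.51-fold (1.47 to 1.55) for the 28 genes above it. Of the genes under the minimum level, the chemokine gene Cxcl10 had 101 UMIs in the members and 13 in the matched cells, with 83 of the 101 in 1 mature macrophage list-led member. Ifi204 had 27 against 7 UMIs, Ifi207 15 against 3 and Gm4951 50 against 22. Ifit3b, a near copy of the rule gene Ifit3 whose reads can be split between them, had 7 UMIs against 0.

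**Figure D3:**
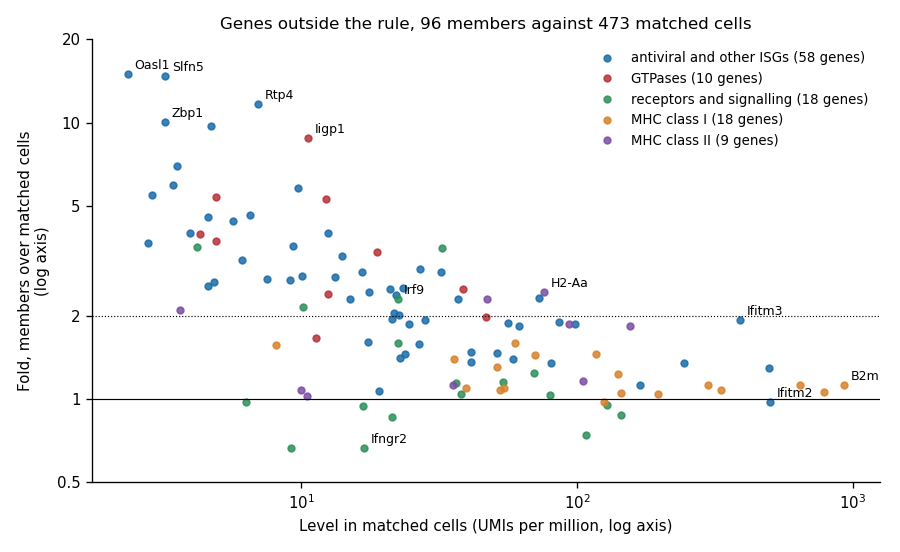
Ratio of members over matched cells (y axis, log axis) against the level in the matched cells (x axis, CPM, log axis) for each gene at the minimum level, coloured by list; the solid line marks 1 and the dotted line 2. Genes at a few CPM reach 14.95-fold (Oasl1), while the abundant Ifitm2 and B2m lie at 0.976 and 1.12.

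The guanylate-binding proteins and immunity-related GTPases, which attack the vacuoles of intracellular pathogens, had the largest ratio of the lists examined. Their sum was 540 CPM in the members and 169 in the matched cells (3.19-fold, 2.95 to 3.45), and 8 of 10 genes at the minimum level were higher by 2-fold or more. This ranking is of whole lists, and the antiviral genes under 20 CPM in the other cells were at 3.98-fold (3.76 to 4.21). Iigp1 was at 93.3 against 10.6 CPM (8.81-fold, 6.86 to 11.4), Irgm2 at 26.5 against 4.92 (5.39-fold, 3.55 to 8.20) and Igtp at 65.2 against 12.3 (5.31-fold, 4.09 to 6.89). Irgm1 was found in 60 of 96 members and 143 of 473 matched cells (3.41-fold, 2.69 to 4.32). The genes closest to the matched cells were Gbp3 (1.66-fold, 1.11 to 2.44) and Ifi47 (1.97-fold, 1.65 to 2.35). Tgtp2 (3.93-fold) and Gbp5 (3.73-fold) completed the 6 highest, and Tgtp2 shares nearly identical sequence with Tgtp1, so its reads may be split. Igtp and Irgm1 are the genes whose cores, printed above, lie within 34 bases of the start site.

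Among receptors and signalling genes, the transcription factor genes Irf9 and Stat2 were higher and the receptor genes were near or below the matched cells. Irf9 was at 51.5 against 22.3 CPM (2.30-fold, 1.80 to 2.94) and Stat2 at 21.9 against 10.2 (2.16-fold, 1.47 to 3.13). Socs1, the feedback inhibitor of the Jak kinases, was at 14.8 against 4.17 (3.55-fold, 2.11 to 5.88). Of the 18 genes of the list, 4 were past 2-fold, and the median was 1.03. The interferon-alpha receptor genes were at 0.858-fold (Ifnar1, 0.584 to 1.23) and 1.03-fold (Ifnar2, 0.864 to 1.22). For the interferon-gamma receptor, Ifngr1 was at 79.5 against 108 CPM (0.739-fold, 0.620 to 0.875) and Ifngr2 at 0.664-fold (0.405 to 1.04). The kinases Jak1 (0.953), Jak2 (1.14) and Tyk2 (0.941) had intervals that held 1, as did Stat3 (1.15), Irf3 (1.04), Irf5 (0.665), Irf8 (0.877) and Socs3 (0.970). Irf1 (1.60-fold, 1.20 to 2.10) and Irf2 (1.24-fold, 1.04 to 1.47) lay between.

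Interferon genes themselves were not detected in the members. The 19 type I, II and III ligand genes had 0 UMIs in 96 members, which allows up to 3 UMIs over the group, and 1 UMI, of Ifnz, in 473 matched cells.

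The 18 MHC class I presentation genes, among them the heavy chains, B2m, the Tap transporter and immunoproteasome subunits, summed to 4597 CPM in the members and 4089 in the matched cells (1.12-fold, 1.10 to 1.15), with 17 genes above 1 and 0 past 2-fold. The highest ratios were those of the peptide-loading factor Tapbp (1.60-fold, 1.34 to 1.89), the transactivator Nlrc5 (1.57-fold, 0.956 to 2.49), H2-T23 (1.45-fold, 1.28 to 1.64) and Tap1 (1.44-fold, 1.22 to 1.69), followed by H2-T22 (1.39) and H2-Q6 (1.30). B2m was at 1045 against 933 CPM (1.12-fold, 1.07 to 1.18). Psmb10 (0.974) and H2-Q7 (1.04) were lowest, and reads of the H2-Q and H2-T genes can be split between near copies.

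The MHC class II list was at 945 against 537 CPM (1.76-fold, 1.67 to 1.86), but this rested on few cells. The median per cell was 253 in the members and 243 in the matched cells, and 1 member held 32.9% of the members' UMIs of the list. Without that member and the highest matched cell the ratio was 1.28, and with matching on principal components it was 1.13. The 3 genes past 2-fold were H2-Aa (2.44-fold), H2-Eb1 (2.30-fold) and the transactivator Ciita (2.10-fold), and H2-Ab1 (1.87) and the invariant chain Cd74 (1.83) followed. H2-DMa (1.16), H2-Oa (1.08) and H2-Ob (1.02) were near 1. Conventional dendritic markers, which mark cells rich in class II, were at 66.8 against 37.5 CPM, and 48.1% of the members' UMIs lay in 1 cell. Their part in the class II difference was not tested.

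Over all cells, antiviral genes and GTPases were higher at each step of the rule sum, and the differences did not begin at 5 UMIs. In cells with 0, 1, 2, 3 to 4, 5 to 9 and 10 or more rule UMIs, the antiviral list was at 2867.5, 3111, 3386, 3842, 4556 and 7447 CPM. Over the same cells the GTPases were at 137, 176, 209, 277, 451 and 785 CPM. Median depth stayed between 16348.5 and 18996 UMIs across these steps, and their intervals did not overlap. The mix of lineages changed with the steps. Stem cell list-led cells were 569 of 5439 cells at 0 rule UMIs and 340 of 1430 at 1. They were 156 of 438 at 2 and 90 of 242 at 3 to 4. The part of this mix in the rise over all cells was not tested. G2/M genes were at 1910, 2203, 2508, 2577, 2650 and 2732 CPM over all cells. In stem cell list-led cells they were at 982, 1128, 1190, 1826, 1425 and 188 CPM. MHC class I genes went from 4013 to 5076.5 over all cells and from 6623 to 8101 in stem cell list-led cells. In erythroid list-led cells they were at 2146, 1997, 1862, 1807, 2281 and 1745 CPM over the same steps. Within stem cell list-led cells the antiviral list was at 5128, 5487, 5812, 6026, 6700 and 11599 CPM over the same steps. The first of these steps held 569 cells and the last 9. Within erythroid list-led cells the antiviral list was at 1699, 1739, 1791, 1917, 2596 and 3371 CPM, with 696 cells in the first step and 3 in the last. GTPases in stem cell list-led cells were at 363, 396, 425, 556, 993 and 1192 CPM. In erythroid list-led cells GTPases were at 74.0, 80.1, 84.5 and 94.3 CPM below 5 rule UMIs. There they were at 330 CPM in 17 cells with 5 to 9 rule UMIs and at 240 CPM in the 3 cells with 10 or more, with overlapping intervals. At 0 rule UMIs, stem cell list-led cells were thus above erythroid list-led cells with 10 or more.

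**Figure D4:**
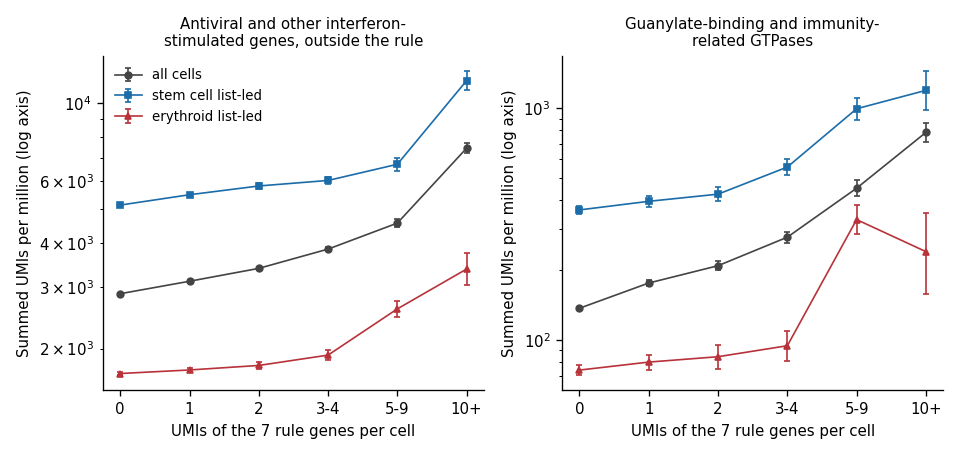
Summed level of the antiviral list (left) and the GTPases (right) in CPM (log axis) by UMIs of the 7 rule genes per cell, for all cells (grey), stem cell list-led cells (blue) and erythroid list-led cells (red), with exact Poisson 95% intervals of the sums. In all cells the antiviral list goes from 2867.5 to 7447, and at each step stem cell list-led cells lie above erythroid list-led cells.

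By lineage the antiviral ratio was 1.46 (1.40 to 1.52) in stem cell list-led, 1.65 (1.56 to 1.74) in erythroid list-led and 2.14 (1.99 to 2.32) in Flt3 progenitor list-led members, each against their own matched cells. Of the Flt3 progenitor list-led members' antiviral UMIs, 26.1% lay in 1 cell. Without the highest member and matched cell of each group the ratios were 1.40, 1.59 and 1.75. Genes past 2-fold numbered 26 of 58, 37 of 58 and 43 of 58, beside 4.38%, 5.68% and 12.5% of all genes. Of all genes, 9.13%, 13.6% and 23.1% were lower by 2-fold or more. In the pool of all other lists the antiviral ratio was 1.99 (1.92 to 2.06), with 41 of 58 genes past 2-fold beside 4.69% of all genes, and 6.3% of all genes were lower. Without the highest member and matched cell the antiviral ratio of the pool was 1.91, above that of each of the 3 named groups on the same terms. The smaller groups of cells have the wider counting error. The stem cell list-led ratio was the smallest although the level was the highest, at 7765 CPM in the members and 5320 in the matched cells, against 2718 and 1650.4 in erythroid list-led cells. Of the 36 stem cell list-led members, 27 exceeded the median of their matched cells, and so did 19 of 20 erythroid and 9 of 9 Flt3 progenitor list-led members. Rtp4 was higher in each: 194 against 23.9 CPM in stem cell list-led cells (8.13-fold, 5.62 to 11.9), 29.1 against 1.20 in erythroid list-led cells (24.2-fold, 8.12 to 97.5) and 122 against 7.46 in Flt3 progenitor list-led cells (16.3-fold, 5.72 to 57.0). GTPases were at 2.80-fold (2.48 to 3.16) in stem cell list-led, 4.36-fold (3.62 to 5.27) in erythroid list-led and 4.57-fold (3.55 to 5.90) in Flt3 progenitor list-led members. In the last group 46.7% of the members' GTPase UMIs lay in 1 cell, and without the highest member and matched cell of each group the ratios were 2.49, 3.30 and 2.90. MHC class II, at 1.09-fold (0.952 to 1.24) in stem cell list-led and 0.798-fold (0.505 to 1.21) in erythroid list-led members, was at 1.249-fold (0.996 to 1.55) in Flt3 progenitor list-led members, and at 2.06-fold (1.94 to 2.20) in the pool of all other lists, where 42.0% lay in 1 member and the ratio without the highest cells was 1.37. The differences between lineages have no replicates and were not tested.

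**Figure D5:**
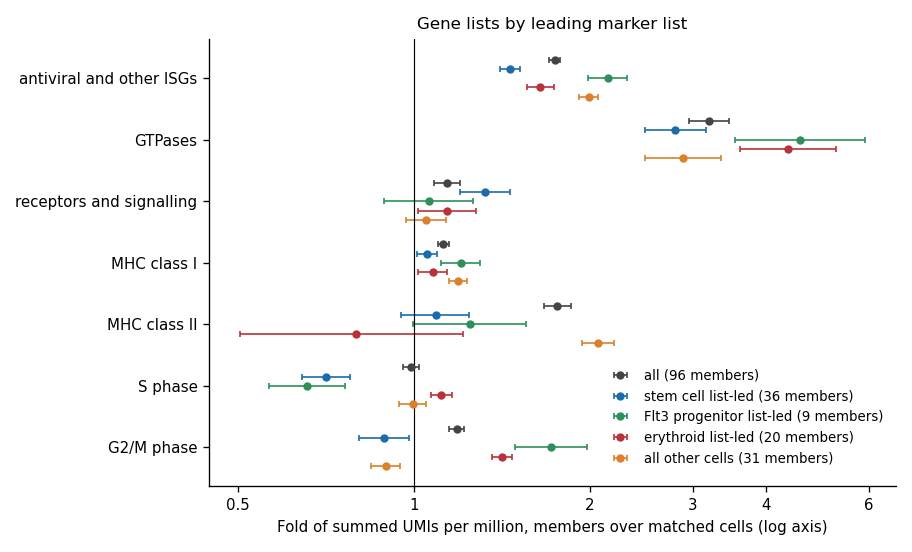
Ratio of summed CPM, members over matched cells (x axis, log axis), for 7 gene lists (y axis), in all members and by leading list, with exact binomial 95% intervals that cover counting error only. The antiviral list and the GTPases lie above 1 in each group, and the S and G2/M lists lie on both sides of 1.

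Cell cycle genes did not share a direction across lineages. S phase genes were at 0.990-fold (0.961 to 1.02) over all members, at 0.708-fold (0.644 to 0.778) in stem cell list-led, 0.658-fold (0.565 to 0.764) in Flt3 progenitor list-led and 1.12-fold (1.07 to 1.16) in erythroid list-led members. G2/M genes were at 1.18-fold (1.15 to 1.22) in all, with all 16 genes above 1 and 0 past 2-fold, led by the mitotic kinase Plk1 (1.58-fold, 1.31 to 1.90), Ccnb1 (1.37), Cenpe (1.36) and Hmmr (1.33). The sum and the typical cell differed in sign, since the median per cell was 482 CPM in the members and 738 in the matched cells. Without the 2 highest cells, 1 of each group, the ratio was 1.15. In stem cell list-led members G2/M genes were at 0.889-fold (0.805 to 0.980), in erythroid list-led members at 1.42-fold (1.36 to 1.47) and in the pool of all other lists at 0.896-fold (0.844 to 0.949). The stem cell list-led members stood at 1156 CPM and their matched cells at 1300. All 569 stem cell list-led cells with 0 rule UMIs stood at 982 CPM (957 to 1008). The direction in stem cell list-led members thus depended on the cells compared. Flt3 progenitor list-led members had G2/M genes at 1.72-fold (1.49 to 1.98), but 65.4% of these UMIs lay in 1 cell, and the ratio was 0.916 without the highest member and matched cell. The stem cell list-led ratio was 0.651 on the same terms. S phase genes ran from 0.854-fold (Mcm6, a helicase subunit, 0.769 to 0.946) to 1.16-fold (Rrm2, a ribonucleotide reductase subunit) over all members.

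Other response programmes were near the matched cells when all members were pooled, but not within each lineage. NF-kappa-B response genes were at 0.962-fold (0.869 to 1.06), p53 response genes at 1.01-fold (0.914 to 1.12), and immediate early and heat shock genes at 1.12-fold (1.08 to 1.15), none with a gene higher by 2-fold among those at the minimum level. Under it, the heat shock gene Hspa1a had 8 UMIs against 11, with 5 of the 8 in 1 member, and its paralogue Hspa1b had 2 against 23. Lower by 2-fold or more at the minimum level were Tnf of the NF-kappa-B list (0.389-fold, 4 against 49 UMIs) and Phlda3 of the p53 list (0.444-fold, 4 against 43). In erythroid list-led members the 3 lists were lower, at 0.566-fold (0.399 to 0.784) for NF-kappa-B, 0.784-fold (0.656 to 0.931) for p53 and 0.765-fold (0.684 to 0.853) for immediate early and heat shock genes. In the pool of all other lists they were higher, at 1.35-fold (1.15 to 1.58), 1.29-fold (1.11 to 1.51) and 1.31-fold (1.24 to 1.38). Flt3 progenitor list-led members had NF-kappa-B response genes at 0.738-fold (0.583 to 0.924), p53 response genes at 0.745-fold (0.478 to 1.12) and immediate early and heat shock genes at 0.987-fold (0.887 to 1.10). Stem cell list-led members had NF-kappa-B at 0.983-fold (0.812 to 1.18), p53 at 1.10-fold (0.861 to 1.40) and immediate early and heat shock genes at 1.11-fold (1.06 to 1.16). Non-canonical BAF genes, which include Brd9, were at 0.959-fold (0.883 to 1.04). Cytosolic ribosomal protein genes were at 1.01-fold and mitochondrial genes at 1.05-fold.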

How the data were processed

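The authors deposited raw UMI counts per gene and cell barcode from 1 10x Chromium 3' library (v3.1), made with Cell Ranger 6.0.2 on mm10, as per the file headers and methods. The labels also describe a bulk RNA preparation, which was not used. No columns of other samples were present. The members and gene lists were chosen with earlier results of these data known, and the leading-list score, the matching and the minimum level were set after the data were seen. A leading list needed a log2 score of at least 1 over the pooled level (50 CPM added), 2 detected markers and 3 UMIs. Named genes were the 6 highest and 2 lowest ratios of each list told by gene, among genes at 2 CPM or more in cells outside the contrast, every signalling gene but 1, which is not reported here, and 15 highest and 8 lowest outside the lists. Of the listed symbols, Oas1b, Mx1, Mx2, Mnda, Pyhin1 and Gbp11 were not analysed here. Ratios compare CPM of summed counts, with exact conditional binomial intervals (scipy 1.17.1). With cells of 1 library, which are not replicates, no test was run. Scrublet (scanpy 1.11.5, expected share 6%) called 301 of 7645 cells doublets, and these were kept. Depth per cell ran from 1592 to 49991 UMIs. Ratios and matching were checked on simulated data. Alternatives changed the UMI limit, cell filter, doublets, Irf7, matching, total and minimum level. Gene positions are from GENCODE M21 (mm10) and promoter windows from RefSeq (GRCm38.p6). Rtp4, Usp18 and Zbp1 matched none of the windows used, and other listed genes were unmatched too. Matches were found for 59 of 73 antiviral genes and 11 of 17 GTPases. Windows on chromosome 18 were left out.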

Additional observations from a re-analysis of the deposited data

Results flagged for a closer look

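The limit of the rule was also passed among barcodes outside the cell filter, which no comparison above used. Genes outside the rule were not examined in barcodes outside the filter. Of 1172 such barcodes, 13 had 5 or more UMIs of the 7 rule genes (1.11%, exact binomial 95% interval 0.592 to 1.89). That is above the level that a count of 0 allows and beside 1.26% of the cells kept. Of these, 12 were among the 213 barcodes at or above the upper limits on UMIs or genes, whose median depth was 54247 UMIs (5.63%, 2.94 to 9.63), and 1 was among the other 959 (0.104%, 0.00264 to 0.580). The summed level of the 7 genes was 38.7 CPM in the deep barcodes and 27.9 in the others, against 27.4 in the cells kept.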

How the results depend on the processing

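No paired analysis was possible because there was 1 library. Of 95 values of the main results under alternatives, 49 moved by less than the counting interval and 46 moved by more. The share of members (1.26%) was 4.42% with a limit of 3 UMIs, 0.340% with a limit of 10 and 0.876% without Irf7 in the rule, and the stem cell list-led share (3.02%) was 10.5% when cells were thinned to 5000 UMIs and the limit was lowered to 2, 2 changes made together, under which the share over all cells was 2.84%. With limits of 3 and 10 UMIs the antiviral ratio (1.74) was 1.43 and 2.39, the GTPase ratio (3.19) 2.20 and 4.64 and the MHC class II ratio (1.76) 1.49 and 3.27. A limit of 10 put MHC class I (1.12) at 1.22 and S phase (0.990) at 1.05, and a limit of 3 put G2/M (1.18) at 1.10. A stricter cell filter gave 1.86 for antiviral genes, 3.52 for GTPases, 1.17 for MHC class I and 2.09 for MHC class II. Without Irf7 in the rule these were 1.93, 3.72, 1.19 and 1.34, with S phase at 0.945 and G2/M at 1.10. Matching on depth alone gave 1.91, 4.07, 1.22 and 1.32, with S phase at 1.07 and G2/M at 1.30. Matching on principal components gave 1.13 for MHC class II, 0.901 for S phase and 1.10 for G2/M, and 1 matched cell per member gave 1.08 for MHC class I, 1.91 for MHC class II and 1.04 for S phase. Leaving out the highest member and matched cell gave 1.28 for MHC class II and 1.15 for G2/M. S phase thus lay on either side of 1, and the cause was not tested.

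Genes higher by 2-fold or more (162) numbered 51 with a limit of 3 UMIs, 584 with a limit of 10, 528 with matching on depth alone, 348 with 1 matched cell per member, 251 with the total reduced and 391 without the minimum level. Genes lower by 2-fold (243) numbered 35, 1035 and 516 with a limit of 3, a limit of 10 and no minimum level. Among 81 named genes, 656 of 807 values moved by less than the counting interval, 149 by more and 2 crossed 1, both with a limit of 10 UMIs: Traf1 at 0.891 and Stxbp6 at 2.45. Depth limits genes with few UMIs, and nothing here covers the spread between animals.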

Other observations

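Outside all lists, the highest ratios among genes at the minimum level fell into genes spread over many members and genes held by a few. Rnf213, a large ubiquitin ligase, was found in 71 of 96 members and 211 of 473 matched cells, with 184 against 301 UMIs (2.91-fold, 2.41 to 3.51). Dmtn, a red cell membrane skeleton gene, had 57 against 81 UMIs in 20 members and 42 matched cells (3.36-fold, 2.35 to 4.77), and was at 1.54-fold when cells were matched on principal components. Klrk1, an activating receptor of NK and T cells, had 19 against 21 UMIs (4.31-fold, 2.19 to 8.43) in 10 members. Gm4070 had 20 against 22 UMIs in 18 members (4.33-fold, 2.24 to 8.32).

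The chemokine gene Ccl5 had 102 UMIs in the members and 1 in the matched cells, but the UMIs lay in 4 members, 2 of them led by the T, NK or innate lymphoid list, with 43 in the highest. Ifi205 had 27 of 34 UMIs in 1 member, and its ratio of 6.48 was 1.35 without that cell. Il18r1 had 16 of 21 UMIs in 1 member, and its ratio of 3.58 was 0.855 without it. The rest of the 15 highest, Rrad, C8g, BC147527, Gm45606, Iqsec2, Hrh2, Traf1 and Tmem67, had between 8 and 19 UMIs in the members and ratios between 2.90 and 3.44.

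The lowest ratios belonged to Ly6d, a gene of early lymphoid cells, with 1 UMI in the members against 194 in 10 matched cells, and to Raph1, with 2 against 83 UMIs in 62 matched cells (0.115-fold, 0.0137 to 0.428). Klc2, Stxbp6, Sgk1, 9330160F10Rik, Tram2 and Nnt followed, each with 1 or 2 UMIs in the members and 28 to 55 in the matched cells.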
